A study of Homo sapiens with 10 samples.

Results

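NRF2, encoded by NFE2L2, is the transcription factor through which many vertebrate cells adjust their antioxidant and detoxifying enzymes. Its adaptor KEAP1 ties it to a CUL3 and RBX1 ubiquitin ligase that marks it for degradation. When reactive electrophiles or oxidants modify KEAP1, NRF2 accumulates, pairs with small MAF proteins such as MAFG, and binds antioxidant response elements near genes for glutathione synthesis, thioredoxin recycling, quinone reduction, NADPH supply and iron storage. The members described here are a list of 41 genes, made of NRF2, its partners, known NRF2 targets and general antioxidant enzymes. All probe sets annotated with exactly 1 gene symbol from the list were taken. That gave 75 of 54675 probe sets, for 38 genes. PRDX5, AKR1B1 and FTH1 had no such probe set, and their expression was not analysed here.

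Expression was measured in IMR90 cells, a fibroblast line from human fetal lung, on 5 arrays of senescent cells at 90 population doublings and 5 arrays of proliferating cells at 28 population doublings. The senescent cultures had been passaged until they no longer grew and were then kept for another 2 weeks. Both groups were cultured in 3% oxygen with 10% serum, and the labels name no transgene or drug in either. Growth state, passage number and the time held after arrest therefore cannot be told apart. Nothing in the labels says that each array had a culture of its own. The p-values therefore measure the spread between these arrays, which may be technical. The arrays read the RNA of whole cultures, in which fewer cells expressing a gene and less RNA per cell cannot be told apart.

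All values below are the deposited log2 values, and a difference is the senescent mean minus the proliferating mean, so that 1 means 2-fold. Values of different probe sets are not comparable as levels. Array medians lay between 3.05 and 3.12. LMNB1, the lamin gene in the title of the series, was lower in the senescent arrays by a log2 difference of -5.51. All 10 fibroblast markers examined, among them COL1A1, VIM and DCN, lay above the 60th percentile of every array, with 3 called higher and 4 lower in senescent cells. Of 5 leukocyte markers with a probe set 0 lay above it on any array. The log2 sum of those leukocyte markers ran from 4.95 to 5.07 on senescent and from 4.94 to 4.98 on proliferating arrays. Of 7 epithelial markers EPCAM and KRT19, both lower in senescent cells, each lay above the 60th percentile on 5 proliferating arrays and 1 senescent array. Of 6 endothelial markers TEK, higher in senescent cells, lay above it on every array. The log2 sum of the epithelial markers was 5.74 to 6.16 on senescent against 7.22 to 7.37 on proliferating arrays, and that of the endothelial markers 10.46 to 10.68 on senescent against 9.64 to 10.05 on proliferating arrays. CDH1, KRT5, KRT14, PECAM1, CDH5 and VWF did not pass the filter on low values. Of 6 smooth muscle markers ACTA2 and LMOD1 were higher and MYH11 lower, and their log2 sum was 13.40 to 13.59 on senescent against 12.96 to 13.28 on proliferating arrays. Their part in the results below was not tested. The 3' minus 5' signal of the ACTB control probe sets, a sign of RNA integrity, was 2.32 ± 0.10 on senescent and 2.07 ± 0.14 on proliferating arrays (SD, n = 5 each, exact permutation p = 0.00794, two-sided, not adjusted). For the GAPDH control probe sets that signal was 0.12 ± 0.09 on senescent and -0.03 ± 0.18 on proliferating arrays (SD, n = 5 each, exact permutation p = 0.135, two-sided, not adjusted). The ACTB values ran from 2.24 to 2.47 on senescent and from 1.85 to 2.19 on proliferating arrays, so the groups did not overlap. The part of RNA integrity in the results was not tested beyond a fit with the ACTB value as a covariate. Because that covariate goes with the group, the fit cannot tell growth state and RNA integrity apart. A call lost or gained in it therefore assigns no cause. That fit is named where it ends a call given here for a gene of the list.

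Of the 38 genes, 36 had a probe set that passed the filter on low values, which asked for values above the 40th percentile of the array in at least 5 arrays of 10. All 36 lay above that percentile on all 10 arrays, so none passed through a single group. Where several probe sets of a gene were tested, the gene was read from the brightest, by its mean over all arrays. Limma's test, adjusted over all 32732 tested probe sets at a threshold of 0.05, called 29 of the 36 genes higher and 2 lower in senescent cells. Over all 12909 genes read in the same way, 30.5% were called higher and 29.8% lower. The list thus had 80.6% of its tested genes higher, and 5.56% lower. Its members were chosen with earlier results of these data known, so these shares are a description and not a test. Its median difference was 0.55, and that of all genes was 0.04. Most of the differences were below 2-fold. Still, 8 of the 36 genes were called with at least a 2-fold increase, a larger share than the 10.0% of all genes. With at least a 2-fold decrease 0 were called, against 10.2% of all genes. Of the 8 genes with such an increase, EPHX1 and AKR1B10 lay below the 60th percentile on every proliferating array, where the size of a difference is less certain.

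**Figure D1:**
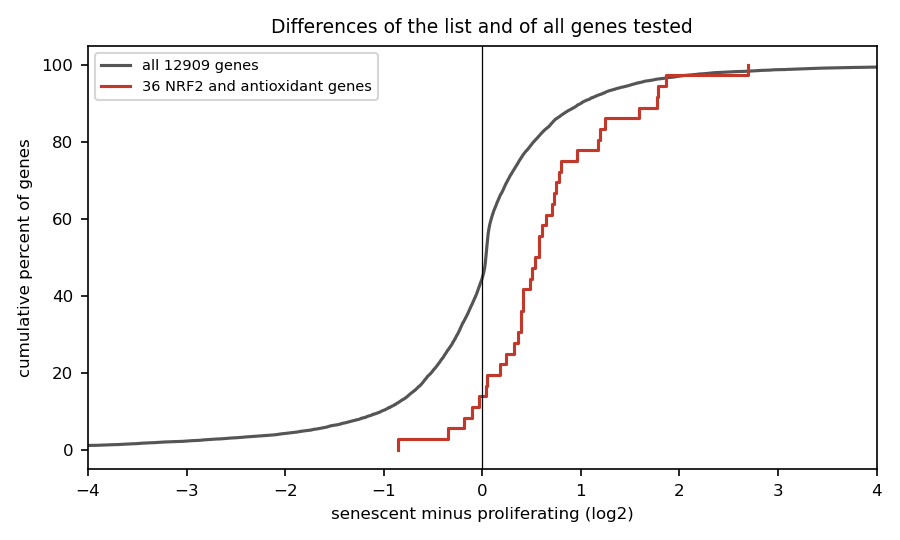
Cumulative percent of genes against the difference of senescent minus proliferating means (log2) for the 36 tested NRF2 and antioxidant genes (red) and for all 12909 genes (grey). The red curve lies to the right of the grey curve around its middle, with medians of 0.55 and 0.04.

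For 28 genes every senescent array lay above every proliferating array, and for 2 genes every senescent array lay below, which was so for 26.7% and 25.1% of all genes. An exact permutation test of the difference gave p = 0.00794 for each of these 30 genes, two-sided, the smallest value that 252 assignments of the arrays allow. With the ACTB covariate 25 genes were higher and 2 lower, against 22.6% and 25.1% of all genes in the same fit. Read by probe set, 45 of the 63 tested probe sets of the list were higher and 4 lower, compared with 26.9% and 26.2% of all tested probe sets.

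**Figure D2:**
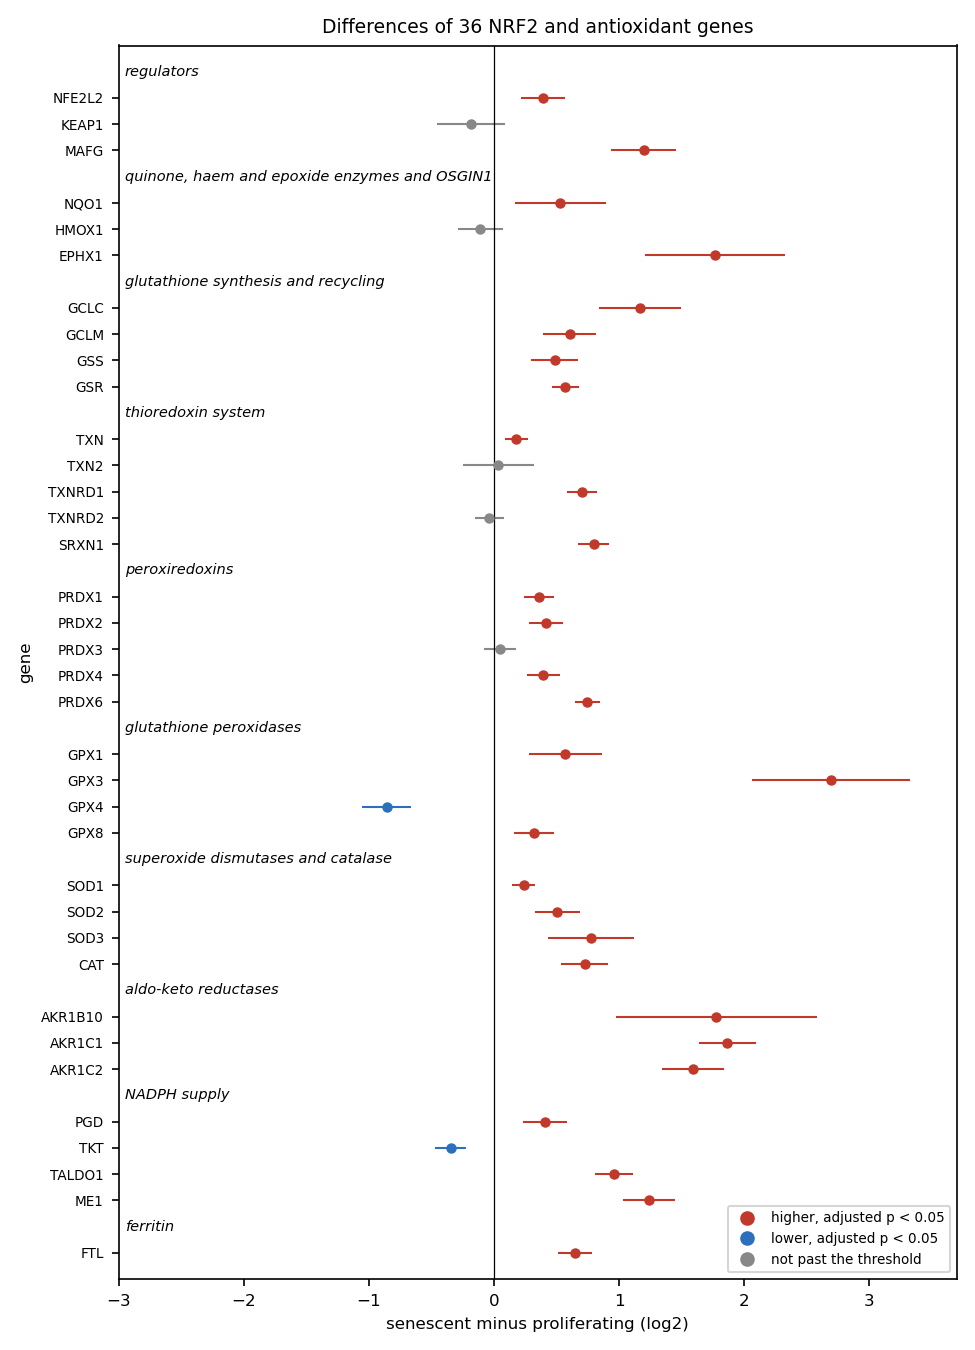
Difference of senescent minus proliferating means (log2, points) with its 95% confidence interval (lines) for the 36 tested genes, grouped by role. Red marks 29 genes called higher, blue the 2 genes called lower, GPX4 and TKT, and grey the 5 genes that did not pass the threshold.

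Promoter windows from RefSeq, on build GRCh38.p14, covered 250 bases before to 50 bases after a gene's start. They were matched by symbol for 32 of the listed genes, PRDX5 and AKR1B1 among them. No window was found for HMOX1, GSS, GSR, TXN2, PRDX1, PRDX6, SOD1, AKR1B10 and FTH1. The windows were searched on both strands for TGACNNNGC, the core letters of the antioxidant response element. A match was present in the windows of 6 of the 32 genes, KEAP1, EPHX1, GCLM, TXNRD1, PGD and ME1, which is 18.8%, beside 16.1% of 27305 genes with a window. Since these shares are near each other, the match sets the list apart from other promoters in no measured way, and an element outside the window is not seen. The windows of 3 of these genes whose senescent values were higher are printed to show where the letters lie, on the gene's strand, with matches in capitals.
GCLM, chr1:93909381-93909680, minus strand: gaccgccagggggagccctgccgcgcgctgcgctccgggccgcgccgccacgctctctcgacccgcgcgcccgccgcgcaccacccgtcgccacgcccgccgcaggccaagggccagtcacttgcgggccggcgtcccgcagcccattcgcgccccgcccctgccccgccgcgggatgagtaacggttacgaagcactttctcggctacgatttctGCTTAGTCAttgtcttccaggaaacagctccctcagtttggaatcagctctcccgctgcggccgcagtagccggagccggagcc
TXNRD1, chr12:104286782-104287081, plus strand: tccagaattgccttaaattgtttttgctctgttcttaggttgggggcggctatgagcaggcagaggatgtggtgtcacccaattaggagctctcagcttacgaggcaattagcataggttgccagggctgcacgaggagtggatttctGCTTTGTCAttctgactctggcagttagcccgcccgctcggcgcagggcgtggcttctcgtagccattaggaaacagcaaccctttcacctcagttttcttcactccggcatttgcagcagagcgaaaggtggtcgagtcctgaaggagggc
ME1, chr6:83431002-83431301, minus strand: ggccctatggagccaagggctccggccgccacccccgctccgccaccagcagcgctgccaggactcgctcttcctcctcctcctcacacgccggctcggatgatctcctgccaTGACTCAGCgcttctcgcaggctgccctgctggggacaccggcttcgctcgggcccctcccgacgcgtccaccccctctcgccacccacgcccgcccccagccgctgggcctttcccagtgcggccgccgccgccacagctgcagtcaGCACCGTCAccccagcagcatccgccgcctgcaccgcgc

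In GCLM the match begins 34 bases before the start and reads on the strand opposite to the gene. In this TXNRD1 window, which belongs to a start further along the gene than another window with matches, it begins 102 bases before the start. In ME1 a match on the strand of the gene begins 137 bases before the start and overlaps TGANTCA, the letters of an AP-1 site, and another lies after the start. Shorter stretches are given for EPHX1, the member of this set with the largest difference, and for KEAP1, which carries 2 matches although its own values did not pass the threshold.
EPHX1, chr1:225825250-225825310, plus strand: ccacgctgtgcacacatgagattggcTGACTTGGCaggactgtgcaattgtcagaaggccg
KEAP1, chr19:10502791-10502851, minus strand: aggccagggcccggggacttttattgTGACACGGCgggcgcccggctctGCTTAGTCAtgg

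Among the regulators, MAFG, a small MAF partner of NRF2, was higher in senescent cells by more than 2-fold. It read 6.57, 6.37, 6.59, 6.48 and 6.30 on the senescent arrays and 5.34, 5.59, 5.34, 4.95 and 5.12 on the proliferating arrays. The groups did not overlap, and the difference was 1.20 (SE 0.12, limma's adjusted p = 9.7e-06). The call rests on 1 probe set, 204970_s_at, whose name marks it as shared between similar transcripts. A further MAFG probe set did not pass the filter.

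NFE2L2 itself read 10.56, 10.41, 10.52, 10.44 and 10.59 on the senescent arrays and 10.11, 10.07, 10.29, 10.23 and 9.87 on the proliferating arrays. Every senescent value was above every proliferating value, by a mean of 0.39 (SE 0.08, limma's adjusted p = 0.0018), or 1.31-fold. Its probe sets did not go the same way. The probe set 1567015_at was lower in senescent cells, by a difference of -0.26 (limma's adjusted p = 0.0087), a call that was lost with the ACTB covariate, at -0.08 (adjusted p = 0.47). The probe set 1567013_at, below the 60th percentile on every array, differed by 0.13 without passing the threshold. The mean of the 3 probe sets differed by 0.09 (adjusted p = 0.12), and with the ACTB covariate the brightest probe set differed by 0.29 (adjusted p = 0.080), so the higher call for NFE2L2 was lost in both settings. KEAP1, the adaptor that holds NRF2 down, averaged 9.09 ± 0.20 in senescent and 9.28 ± 0.21 in proliferating cells (SD, n = 5 each). Its difference of -0.18 had a 95% confidence interval of -0.45 to 0.09 and limma's adjusted p = 0.23.

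**Figure D3:**
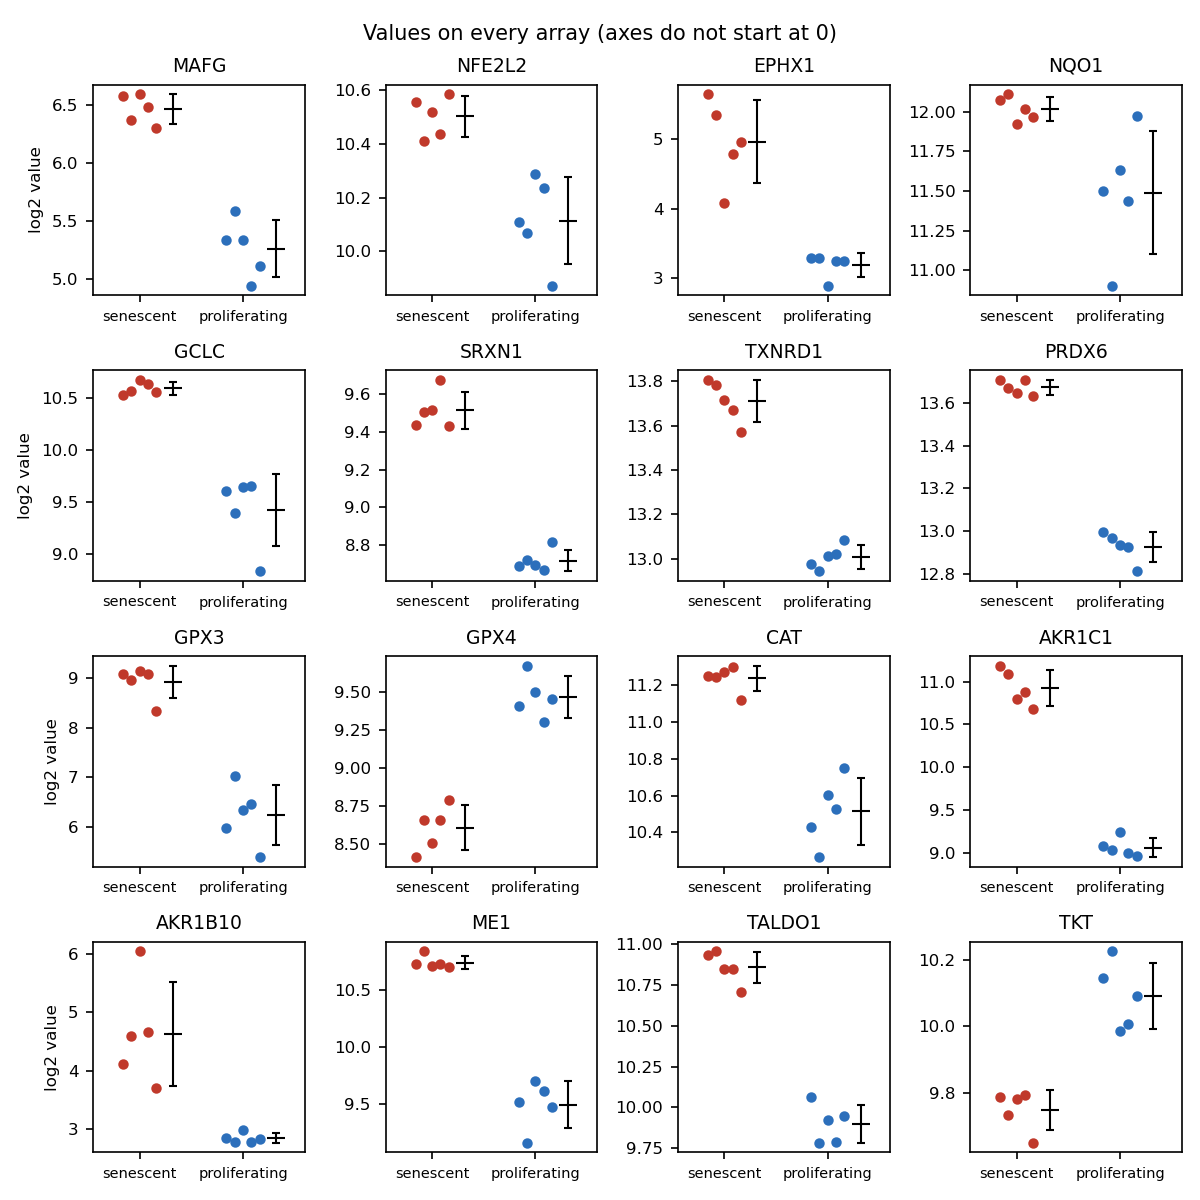
Values on every array (log2, points) with mean and SD (black) for 16 genes of the list, senescent arrays on the left of each panel and proliferating arrays on the right. The groups are apart in every panel except NQO1, where proliferating 5 reached 11.97, above the lowest senescent value of 11.92.

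Of the enzymes that act on quinones, haem and epoxides, EPHX1 and NQO1 were called higher and HMOX1 was not. EPHX1, the microsomal hydrolase that opens reactive epoxides, read 5.64, 5.34, 4.09, 4.79 and 4.95 on the senescent arrays and 3.29, 3.29, 2.90, 3.25 and 3.25 on the proliferating arrays. The senescent values were spread widely but all higher, with a difference of 1.77 (SE 0.25, limma's adjusted p = 0.00017). On every proliferating array the gene lay below the 60th percentile, and whether the background correction sets the size of this difference was not tested.

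NQO1, the quinone reductase often used as a readout of NRF2, read 12.07, 12.11, 11.92, 12.02 and 11.96 on the senescent arrays and 11.50, 10.90, 11.63, 11.43 and 11.97 on the proliferating arrays. Proliferating 5 fell within the range of the senescent arrays. The difference was 0.53 (SE 0.16, limma's adjusted p = 0.019), and the call was lost with the ACTB covariate, at 0.27 (adjusted p = 0.43). Its other probe sets were also called higher, 201467_s_at by 0.70 and 201468_s_at by 1.08, and in the last of these the groups did not overlap. The call of 201467_s_at was lost with the ACTB covariate, at 0.50 (adjusted p = 0.23). HMOX1, the inducible haem oxygenase, averaged 5.09 ± 0.15 in senescent and 5.20 ± 0.11 in proliferating cells (SD, n = 5 each). Its difference of -0.11 (95% confidence interval -0.29 to 0.07, limma's adjusted p = 0.29) did not pass. OSGIN1, an oxidative stress-induced growth inhibitor, did not pass the filter, and its value was between 1.84 and 2.30 on all arrays.

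All 4 genes of glutathione synthesis and recycling were called higher. GCLC encodes the catalytic subunit of glutamate-cysteine ligase, the rate-limiting enzyme of the pathway, and read 10.53, 10.57, 10.67, 10.63 and 10.55 on the senescent arrays and 9.61, 9.39, 9.64, 9.65 and 8.83 on the proliferating arrays. Proliferating 5 was the lowest by a wide margin, and the groups did not overlap. The difference was 1.17 (SE 0.15, limma's adjusted p = 6.8e-05). A further probe set of GCLC also differed by 1.17, and 1555330_at by 0.31 without passing the threshold. The modifier subunit gene GCLM read 9.69, 9.68, 9.80, 9.74 and 10.10 on the senescent arrays and 8.98, 9.35, 9.18, 9.24 and 9.23 on the proliferating arrays. It was higher on each senescent array, by 0.61 (SE 0.09), and its other probe sets 234986_at and 236140_at were higher by 0.64 and 0.42.

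GSR, whose product returns oxidised glutathione to the reduced form, read 11.98, 12.07, 12.10, 12.10 and 11.95 on the senescent arrays and 11.51, 11.41, 11.43, 11.56 and 11.42 on the proliferating arrays. The arrays of each group lay close together and the groups were apart, with a difference of 0.57 (SE 0.05, limma's adjusted p = 4.3e-06). Its other probe set was higher by 0.20. GSS, which completes glutathione from its dipeptide precursor, was higher by 0.48 (SE 0.08) and by 0.47 on its further probe set 211630_s_at.

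In the thioredoxin system the reductase and sulfiredoxin genes had the larger differences. SRXN1, the enzyme that restores overoxidised peroxiredoxins, read 9.44, 9.51, 9.52, 9.68 and 9.43 on the senescent arrays and 8.69, 8.72, 8.70, 8.67 and 8.81 on the proliferating arrays. The gap between the groups was wider than the range within either, and the difference was 0.80 (SE 0.06, limma's adjusted p = 8.3e-07). TXNRD1, the cytosolic thioredoxin reductase, read 13.81, 13.78, 13.72, 13.67 and 13.57 on the senescent arrays and 12.98, 12.94, 13.01, 13.02 and 13.08 on the proliferating arrays. It was higher on each senescent array, by 0.70 (SE 0.05, limma's adjusted p = 1.6e-06), and by 0.41 for the mean with a dim further probe set, below the 60th percentile on every array.

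TXN, cytosolic thioredoxin, read 13.38, 13.33, 13.29, 13.41 and 13.32 on the senescent arrays and 13.11, 13.13, 13.16, 13.22 and 13.22 on the proliferating arrays. The groups were apart by a small step, a difference of 0.18 (SE 0.04, limma's adjusted p = 0.0041), and the call was lost with arrays centred on housekeeping genes, at 0.11 (adjusted p = 0.19). The mitochondrial thioredoxin gene TXN2 averaged 7.88 ± 0.29 in senescent and 7.84 ± 0.10 in proliferating cells (SD, n = 5 each). Its difference of 0.04 (95% confidence interval -0.25 to 0.32, limma's adjusted p = 0.82) did not pass. Its other probe set 209078_s_at differed by -0.10 without passing, and was called higher with the ACTB covariate, at 0.60 (adjusted p = 0.022). The mitochondrial reductase gene TXNRD2 differed by -0.04 (95% confidence interval -0.15 to 0.08), without passing, on a probe set below the 60th percentile of every array.

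Among the peroxiredoxins, which reduce hydrogen peroxide with a reactive cysteine, PRDX1, PRDX2, PRDX4 and PRDX6 were called higher and PRDX3 was not. PRDX6, which relies on glutathione in place of thioredoxin, read 13.71, 13.67, 13.65, 13.71 and 13.63 on the senescent arrays and 13.00, 12.97, 12.93, 12.93 and 12.81 on the proliferating arrays. All senescent arrays were higher, by 0.75 (SE 0.04, limma's adjusted p = 2.4e-07), and by 0.99 on the further probe set 200845_s_at. PRDX2, a cytosolic member abundant in red cells, read 10.11, 10.32, 10.32, 10.37 and 10.29 on the senescent arrays and 9.93, 9.97, 9.76, 9.82 and 9.85 on the proliferating arrays. The groups were apart by 0.42 (SE 0.06, limma's adjusted p = 0.00021), yet its other 3 tested probe sets differed by -0.0011 to 0.17 without passing, and the mean of all differed by 0.18.

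PRDX4, the peroxiredoxin of the endoplasmic reticulum, read 12.92, 12.86, 12.98, 12.85 and 12.79 on the senescent arrays and 12.56, 12.45, 12.58, 12.50 and 12.33 on the proliferating arrays. Every senescent array was higher, by 0.39 (SE 0.06). The cytosolic PRDX1 was higher by a similar 0.36 (SE 0.05). The mitochondrial PRDX3 averaged 11.96 ± 0.09 in senescent and 11.91 ± 0.08 in proliferating cells (SD, n = 5 each), a difference of 0.05 (95% confidence interval -0.08 to 0.17, limma's adjusted p = 0.50).

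The glutathione peroxidase genes held the largest increase and the largest decrease of the 36 tested genes. GPX3, the secreted peroxidase of plasma, read 9.09, 8.97, 9.15, 9.09 and 8.35 on the senescent arrays and 5.97, 7.02, 6.34, 6.46 and 5.38 on the proliferating arrays. Senescent 5 was the lowest of its group and still above the highest proliferating array. The difference was 2.69 (SE 0.28, limma's adjusted p = 1.8e-05), or 6.47-fold, and 1.82 on its other probe set 214091_s_at.

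GPX4, which reduces lipid hydroperoxides in membranes and thereby protects against ferroptosis, went the opposite way. Its values were 8.42, 8.66, 8.51, 8.66 and 8.79 on the senescent arrays and 9.41, 9.67, 9.50, 9.30 and 9.45 on the proliferating arrays. Every senescent array was lower, with a difference of -0.86 (SE 0.09, limma's adjusted p = 1.4e-05), or 1.81-fold lower. The cytosolic GPX1 read 8.26, 8.62, 8.33, 8.67 and 8.98 on the senescent arrays and 8.08, 7.97, 7.97, 7.82 and 8.16 on the proliferating arrays. Its groups came close without overlapping, at a difference of 0.57 (SE 0.13, limma's adjusted p = 0.0042). GPX8, of the endoplasmic reticulum, was higher by 0.32 on each of its 2 probe sets, and the call of the brighter was lost with the ACTB covariate, at 0.29 (adjusted p = 0.073).

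All 3 superoxide dismutase genes and catalase were called higher. SOD3, the extracellular enzyme, read 5.54, 5.87, 5.58, 5.35 and 5.11 on the senescent arrays and 4.42, 4.89, 4.67, 4.59 and 5.01 on the proliferating arrays. The groups were separated by a narrow margin, and the difference was 0.78 (SE 0.15, limma's adjusted p = 0.0016). It rests on 1 probe set, whose name marks it as shared between similar transcripts. Only 2 of the 5 proliferating arrays lay above the 60th percentile there. Catalase, CAT, which splits hydrogen peroxide in peroxisomes, read 11.25, 11.25, 11.27, 11.30 and 11.12 on the senescent arrays and 10.43, 10.26, 10.60, 10.53 and 10.75 on the proliferating arrays. It was higher on each senescent array, by 0.72 (SE 0.08, limma's adjusted p = 4.1e-05) and by 1.02 on 211922_s_at, whereas 215573_at, below the 60th percentile on every array, differed by 0.10 without passing.

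SOD2, the mitochondrial enzyme, read 13.33, 13.26, 13.34, 13.31 and 13.22 on the senescent arrays and 12.84, 12.77, 12.91, 12.92 and 12.49 on the proliferating arrays. The groups did not overlap, and the difference was 0.51 (SE 0.08, limma's adjusted p = 0.00037). It rests on a single probe set, since 4 others name a further gene beside SOD2 and were not used. The cytosolic SOD1 was higher by 0.24 (SE 0.04), a call that was lost with arrays centred on housekeeping genes, at 0.17 (adjusted p = 0.069).

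The aldo-keto reductases, NADPH-dependent enzymes for aldehydes, ketones and steroids, were called higher for all 3 tested members, with differences above 1, although the proliferating values of AKR1B10 lay near background. AKR1C1 read 11.19, 11.09, 10.80, 10.88 and 10.68 on the senescent arrays and 9.07, 9.03, 9.25, 8.99 and 8.96 on the proliferating arrays. The groups stood far apart, by 1.87 (SE 0.10, limma's adjusted p = 1.3e-07), or 3.64-fold. AKR1C2 read 9.04, 8.89, 8.60, 8.69 and 8.54 on the senescent arrays and 7.37, 7.11, 7.27, 6.93 and 7.13 on the proliferating arrays, and every senescent array was higher. Its difference was 1.59 (SE 0.11, limma's adjusted p = 9.5e-07).

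These genes are close relatives. The probe sets of AKR1C1 and AKR1C2 that passed the filter, 4 in all, carry names that mark them as shared between similar transcripts, so the family members cannot be told apart by them. The AKR1C1 probe set 217626_at, which carries no such mark, did not pass the filter and read between 2.48 and 3.86 on all arrays. Nor did the other unmarked probe sets, 1555855_at of AKR1C1, at 1.88 in both groups, and 244266_at of AKR1C2, which averaged 2.25 on senescent and 2.23 on proliferating arrays. AKR1C3 was measured by a single probe set that did not pass the filter, at 2.65 to 2.68 on all arrays. AKR1B10 read 4.12, 4.61, 6.05, 4.67 and 3.71 on the senescent arrays and 2.85, 2.79, 2.99, 2.79 and 2.83 on the proliferating arrays. All proliferating values were below the median of their own array, so the size of the difference is uncertain. The senescent arrays were all higher but scattered, with senescent 3 well above the rest. The difference was 1.78 (SE 0.36, limma's adjusted p = 0.0019), with 1 array of all 10 above the 60th percentile, and the call was lost with the ACTB covariate, at 1.19 (adjusted p = 0.10).

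NADPH is the reductant on which glutathione and thioredoxin recycling draw. Of the 4 genes grouped under its supply 3 were higher, although the products of TALDO1 and TKT do not themselves make NADPH. ME1, the cytosolic malic enzyme, read 10.72, 10.83, 10.71, 10.72 and 10.69 on the senescent arrays and 9.52, 9.16, 9.71, 9.62 and 9.48 on the proliferating arrays. The groups were apart by 1.24 (SE 0.09, limma's adjusted p = 1.4e-06), and by 1.67 on 204058_at, which is not marked as shared. The pentose phosphate enzyme gene TALDO1 read 10.93, 10.96, 10.85, 10.85 and 10.71 on the senescent arrays and 10.06, 9.78, 9.92, 9.78 and 9.95 on the proliferating arrays. All senescent arrays were higher, by 0.96 (SE 0.07, limma's adjusted p = 1.0e-06), or 1.94-fold.

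PGD, the dehydrogenase that makes NADPH within that pathway, read 9.99, 10.07, 10.11, 10.19 and 9.94 on the senescent arrays and 9.56, 9.81, 9.51, 9.54 and 9.82 on the proliferating arrays. Its groups were apart by a small gap, at a difference of 0.41 (SE 0.08, limma's adjusted p = 0.0015). TKT, the transketolase of the same pathway, was lower, averaging 9.75 ± 0.06 in senescent and 10.09 ± 0.10 in proliferating cells (SD, n = 5 each). The difference was -0.35 (SE 0.06, limma's adjusted p = 0.00041), and its further probe set 208699_x_at was lower by a log2 difference of -0.44. With the ACTB covariate the first kept its call, at -0.29 (adjusted p = 0.023), and the further probe set lost it, at -0.33 (adjusted p = 0.12).

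FTL, the light chain of ferritin, which stores iron and so limits iron-driven oxidation, read 13.54, 13.61, 13.45, 13.70 and 13.74 on the senescent arrays and 12.93, 13.04, 13.00, 12.87 and 12.94 on the proliferating arrays. Every senescent array was higher, by 0.65 (SE 0.06, limma's adjusted p = 9.4e-06), and by 0.92 on 213187_x_at. Both probe sets are marked as shared.

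**Figure D4:**
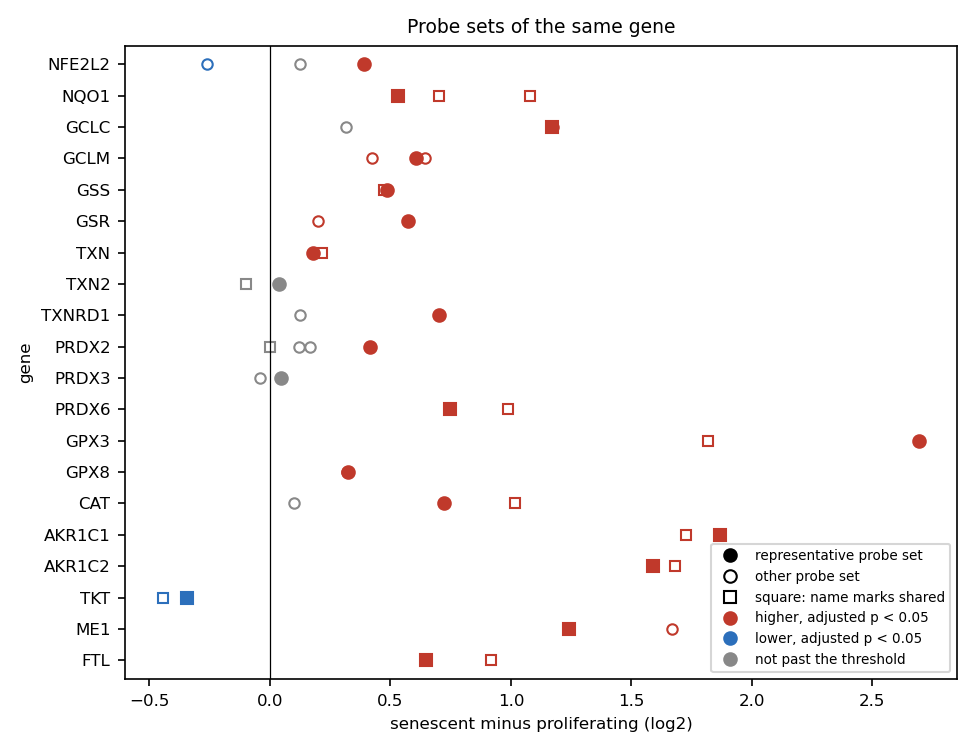
Difference of senescent minus proliferating means (log2) for each tested probe set of the 20 genes with at least 2 of them, filled for the probe set that represents the gene and square where the name marks it as shared. For 12 genes all probe sets were called higher, for TKT both were lower, and NFE2L2 alone had called probe sets on both sides of 0. The matching shares over all genes were not computed.

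Agreement between probe sets varied over the list. Of 20 genes with at least 2 tested probe sets, 12 had all of them called higher, and NFE2L2 was the only gene of the 20 with calls in both directions. The matching shares over all genes were not computed, so whether this agreement is unusual was not tested. In total 14 of the 36 genes were read from probe sets named as shared between transcripts. Without all such probe sets, 24 genes remained testable, of which 19 were called higher and 1, GPX4, lower. Of all genes in that setting 30.3% were called higher and 27.3% lower. Within the senescent group, senescent 5 was the lowest array for 19 of the 36 genes and the highest for 9. How often senescent 5 was the lowest or highest over all genes was not counted. Without that array 29 genes were called higher and 2 lower.

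Other genes of the NRF2 and redox pathways, from 5 further lists, moved in both directions. Of 69 listed genes 62 were tested, and 28 were called higher and 12 lower, or 45.2% and 19.4%, against 30.5% and 29.8% of all genes. Their median difference was 0.05, close to the 0.04 of all genes. Without probe sets marked as shared, 16 of 45 were higher and 13 lower, against 30.3% and 27.3% of all genes in that setting. Of 34 genes with at least 2 tested probe sets, MGST1 had calls in both directions, and such cases were not counted over all genes. In 5 genes the brightest probe set was not called while another was, higher for ALDH3A2 and lower for CUL3, FECH, MSRB2 and RAC1. Genes named below as lower, apart from IDH2, were chosen after their values were seen.

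Of 10 other regulators 6 were higher and 2 lower, or 60% and 20%, beside the 30.5% and 29.8% of all genes. SQSTM1, the p62 autophagy receptor that binds KEAP1, averaged 11.82 ± 0.10 in senescent and 10.29 ± 0.16 in proliferating cells (SD, n = 5 each), a difference of 1.54 (SE 0.08, limma's adjusted p = 1.3e-07). For the mean of its probe sets the difference was 0.79. BTRC, a ligase subunit that marks NRF2 for degradation apart from KEAP1, averaged 10.18 ± 0.09 in senescent and 8.53 ± 0.12 in proliferating cells (SD, n = 5 each), a difference of 1.65 (SE 0.07). MAFF, a further small MAF gene, was higher by 0.80. RBX1, of the KEAP1 ligase, was lower at -0.77, and its partner CUL3 differed by -0.02 without passing on its brightest probe set, but was lower on another, at -0.51 (limma's adjusted p = 5.9e-05). BACH1, a repressor that competes with NRF2 for its sites, was lower at -0.28, and that call was lost in 6 of 22 alternatives, with adjusted p-values up to 0.062, among them without senescent 2 and without proliferating 1, 3 or 4.

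Among 17 other known NRF2 targets 5 were higher and 3 lower. SLC48A1, a haem transporter, averaged 7.00 ± 0.28 in senescent and 3.95 ± 0.38 in proliferating cells (SD, n = 5 each), a difference of 3.05 (SE 0.19, limma's adjusted p = 4.7e-07) from a proliferating signal below the 60th percentile. PIR was higher by 1.76 and the cystine importer gene SLC7A11 by 1.31, whereas CBR3, UGDH and TRIM16 were lower at -1.12, -0.51 and -0.31. The share higher, 29.4%, lies near the 30.5% of all genes, and the share lower was 17.6%, against 29.8% of all genes.

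Of 20 other thiol and glutathione enzymes 11 were higher and 4 lower, or 55% and 20%, beside the 30.5% and 29.8% of all genes. GLRX, cytosolic glutaredoxin, was higher by 1.48, the glutathione transferase gene GSTM2 by 1.16 and TXNIP, whose product binds thioredoxin, by 1.08. GPX7, GLRX2, GLRX5 and GLRX3 were lower at -1.03, -0.59, -0.52 and -0.30, and the GLRX3 call was lost for the mean of its probe sets, at -0.12 (adjusted p = 0.11), and without shared probe sets, at -0.04 (adjusted p = 0.85). Among 9 other redox proteins 5 were higher and 3 lower, or 55.6% and 33.3%, and the share lower lies near the 29.8% of all genes. The sestrin genes SESN3 and SESN2 were higher by 1.95 and 1.25. IDH2, the mitochondrial NADP-dependent isocitrate dehydrogenase, averaged 6.24 ± 0.19 in senescent and 8.24 ± 0.12 in proliferating cells (SD, n = 5 each), a difference of -1.997 (SE 0.09, limma's adjusted p = 5.4e-08). NNT and PARK7 were also lower, at -0.65 and -0.17, and NNT stood at -0.25 without shared probe sets. Of 6 tested genes for superoxide and peroxide producers 1 was higher and 0 lower, or 16.7% and 0%, beside the 30.5% and 29.8% of all genes. CYBB was higher by 0.24, on a probe set marked as shared and with overlapping groups. It lost its call when housekeeping genes set the centre of each array (0.17, adjusted p = 0.14). Its other 3 probe sets did not pass the filter. The oxidase gene NOX4 differed by -0.34 without passing (95% confidence interval -0.67 to -0.0022, limma's adjusted p = 0.085).

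**Figure D5:**
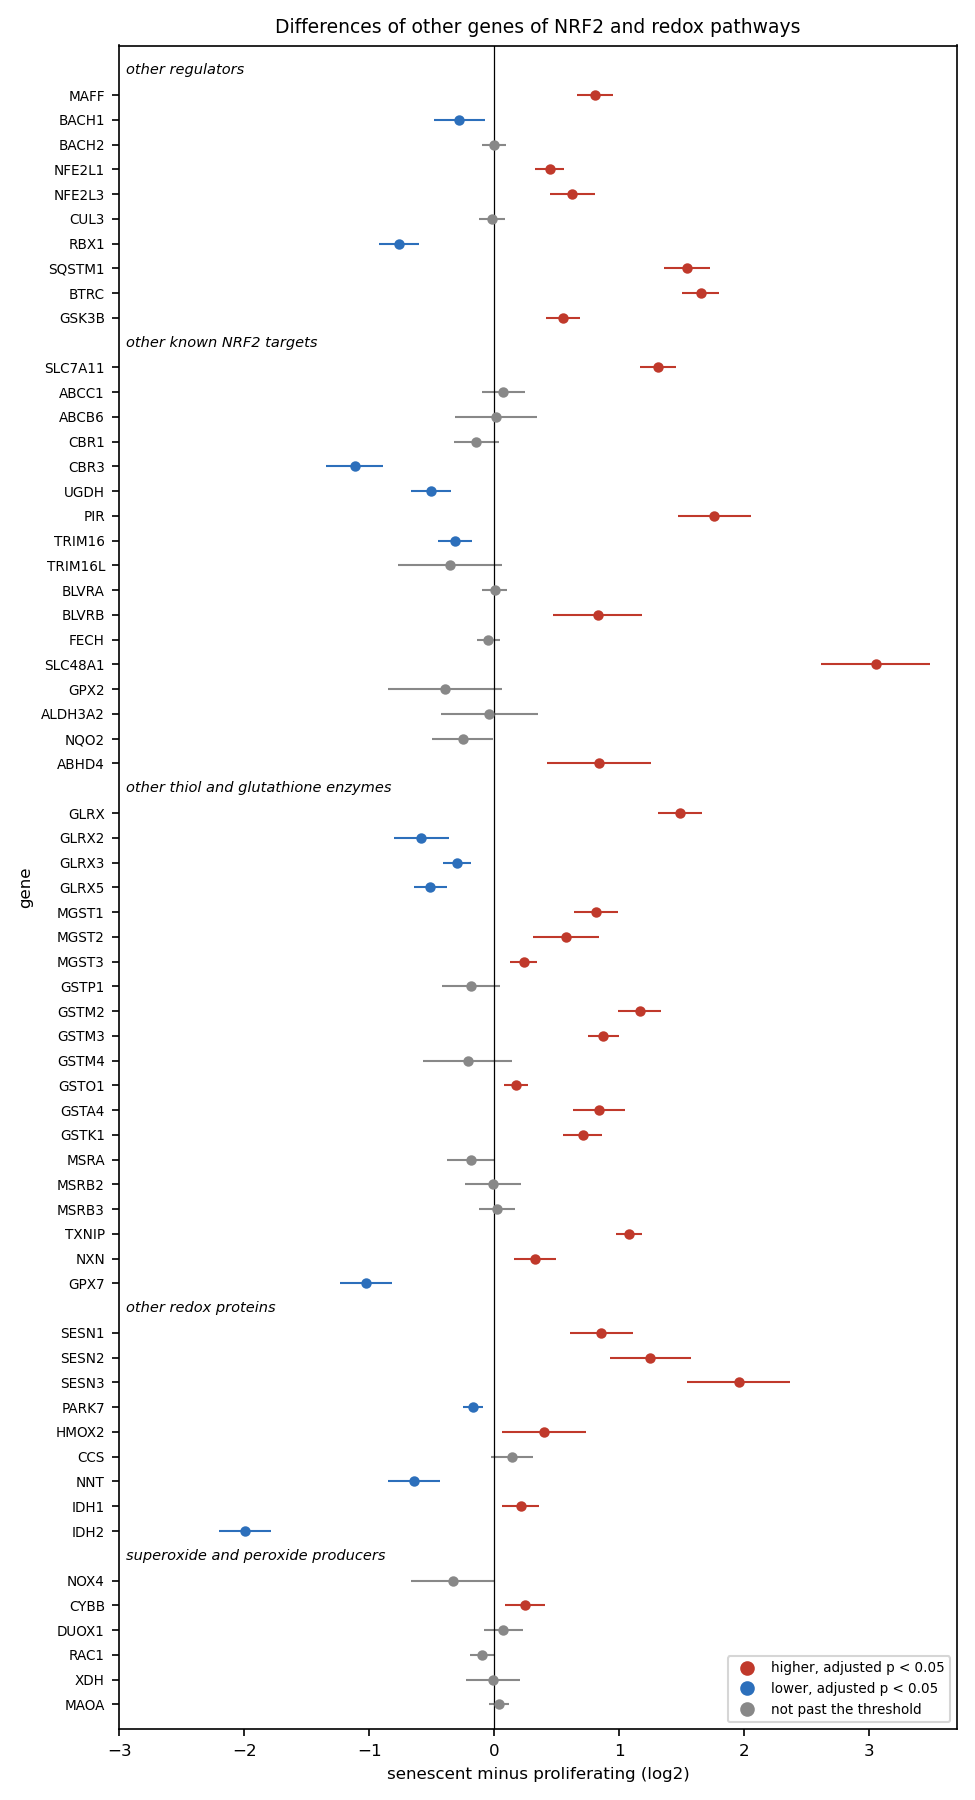
Difference of senescent minus proliferating means (log2, points) with its 95% confidence interval (lines) for 62 further genes of NRF2 and redox pathways in 5 lists. Red marks 28 genes called higher, blue 12 called lower and grey 22 that did not pass; SLC48A1 at 3.05 and IDH2 at -1.997 lie furthest out.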

How the data were processed

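Total RNA of IMR90 cells, in 5 senescent and 5 proliferating samples, was extracted with Trizol and hybridised to Affymetrix arrays, per the labels' protocols. The deposited values are log2 values, 1 per probe set and array. Partek and GCRMA are named in the submitters' processing notes, without version, role or settings. No source states the base of the logarithm, which was taken as log2 because of how far the deposited values extend. Detection calls and scan batches were not used here, and the number of arrays limits the precision. Probe sets were named from the platform annotation, with symbols updated through the RefSeq gene table of GRCh38.p14. Of 54675 probe sets 41091 had 1 symbol and 62 were controls, which were left out.

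Two-sided tests of the difference came from limma 3.58.1 (lmFit, then eBayes) under R 4.3.3, without a block, over probe sets above the 40th percentile on at least 5 arrays, with Benjamini-Hochberg adjustment over 32732 probe sets. Exact permutation tests used all 252 assignments of arrays. Values on every array are given for up to 3 called members of each role, those with the largest absolute differences, and of each other list up to 3 called genes are named by the same order. The members, lists and tests were chosen with earlier results of these data known. The fit was tested on simulated data. Alternatives covered the filter, scaling, block, variance prior, array weights, probe set summary, shared probe sets, an ACTB covariate and leaving out arrays. Figures used matplotlib 3.10.9. The expression of PRDX5, AKR1B1 and FTH1 was not analysed here.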

Additional observations from a re-analysis of the deposited data

Results flagged for a closer look

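In 72 groups of 5 values, for 36 genes in 2 states, 6 values stood apart from the other 4 by more than 0.71 of the range of their group, where chance flags about 1 in 20 groups. On senescent 5, GCLM was highest at 10.10, against 9.68 to 9.80 on the other senescent arrays, and GPX3 was lowest at 8.35, against 8.97 to 9.15. On senescent 2, ME1 was highest at 10.83, against 10.69 to 10.72 on the others of its group. On proliferating 2, HMOX1 was highest at 5.39, against 5.14 to 5.18, and TXNRD2 was highest at 3.21, against 2.97 to 3.01. On proliferating 3, EPHX1 was lowest at 2.90, against 3.25 to 3.29 on the other proliferating arrays.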

How the results depend on the processing

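Of 31 called genes of the list 25 passed the threshold in each of the 22 alternatives in which they could be tested, and none of the 31 changed direction. The others were NFE2L2, NQO1, TXN, GPX8, SOD1 and AKR1B10, with values given above. Leaving out each array in turn gave 29 higher and 2 lower genes each time, 44 to 45 higher and 4 lower probe sets of the list, 27 to 28 higher and 11 to 14 lower genes of the other lists, and 8256 to 8718 higher and 8084 to 8523 lower among all probe sets. A replicate block gave 29 higher and 2 lower genes of the list, with 8419 higher and 8229 lower among all probe sets, and changed no call of a gene of the list. Deviations of same-numbered arrays from their group means correlated between -0.06 and 0.09. In these deviations 4 of 10 arrays correlated best with the array of their own number. Whether the shared replicate numbers pair the arrays cannot be decided from this, and the labels do not say. Without shared probe sets fewer were tested, and 5343 higher and 4847 lower were called among all probe sets, 23 higher and 2 lower on the list, for 19 and 1 genes, with 16 higher and 13 lower genes of the other lists. With the ACTB covariate 2 probe sets of the list were lower, and 6544 higher and 6744 lower were called among all probe sets, against 8798 and 8562 without it. Centring on housekeeping genes moved the median of all probe sets by -0.07. Genes whose differences did not pass the threshold changed sign in some settings, and the cause was not tested. TXN2 was at -0.034 with housekeeping centring, at -0.031 for the mean of its probe sets, at -0.00016 with array weights, between -0.077 and 0.115 when single arrays were left out, with the lowest value without senescent 5, and at -0.10 without that array and proliferating 2. PRDX3 was at -0.024 with housekeeping centring, at -0.0016 with the ACTB covariate and at -0.0045 without both arrays. TXNRD2 was at 0.048 with the covariate, between -0.051 and 0.0068 when single arrays were left out, with the highest value without proliferating 2, and at 0.00087 without both arrays, and HMOX1 was at 0.12 with the covariate.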
